A study of Homo sapiens with 2 samples.

Results

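The NR4A genes encode 3 orphan nuclear receptors, NR4A1 (Nur77), NR4A2 (Nurr1) and NR4A3 (NOR1), and their transcripts were followed in CL1-0 cells given an antibody to FSTL1. The members are all probe sets whose platform annotation names 1 of these genes and no other, 9 of 54675 probe sets, with 3 for each gene. They were chosen by gene name, but with their difference between the arrays already known, so the values below describe that difference and are no test of it. CL1-0 is an established human lung adenocarcinoma line with low invasiveness. The groups were cells given the antibody for 6 h (1 array) and cells given it for 0 h (1 array). Per the labels, the cells had been selected with puromycin and stably transduced, and since the protocol is the same for both arrays, both groups share this. The vector is not named there. Cells kept for 6 h without the antibody were not analysed here, so the antibody and time in culture cannot be told apart. FSTL1 is a secreted glycoprotein that binds several receptors and ligands at the cell surface.

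NR4A receptors are immediate early genes: growth factors, cAMP, calcium and stress induce them within a short time, before new protein is made. Their ligand-binding domains have little or no room for a classical ligand, so their activity follows mainly from how much protein the cell makes. All 3 bind the NBRE element as monomers, and NR4A1 and NR4A2, unlike NR4A3, also pair with the retinoid X receptors. A main route of induction runs through CREB, which binds the cAMP response element (CRE), and its CRTC coactivators. In lung cancers that have lost the kinase LKB1, encoded by STK11, CRTC coactivators are active and NR4A genes are among their targets.

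The genes lie on GRCh38.p14 chromosome 12 (NR4A1, 52022832 to 52059503), chromosome 2 (NR4A2, 156324437 to 156332721) and chromosome 9 (NR4A3, 99821885 to 99866891). The RefSeq promoter table, which gives 250 bases before and 50 after a transcript start, held NR4A3 with 1 window and NR4A1 with 2. NR4A2 had no entry. The windows were searched on both strands for the CRE (TGACGTCA), the core of the CRE (TGACG, which every full CRE also holds), the AP-1 site (TGANTCA) and the NBRE (AAAGGTCA). The NR4A3 window and the downstream NR4A1 window are shown because they have the same GC content, 69.7%, and differ in CRE cores. Capitals mark the CRE cores on either strand, and both sequences run along the plus strand, which is the strand of both genes.
NR4A3, chr9:99821635-99821934: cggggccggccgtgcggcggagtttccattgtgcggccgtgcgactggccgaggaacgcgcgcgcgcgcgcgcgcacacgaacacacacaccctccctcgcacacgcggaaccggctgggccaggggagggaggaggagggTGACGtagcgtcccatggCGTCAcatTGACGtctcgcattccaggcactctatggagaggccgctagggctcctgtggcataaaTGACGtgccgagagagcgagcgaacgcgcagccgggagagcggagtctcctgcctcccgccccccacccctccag
NR4A1, chr12:52037465-52037764: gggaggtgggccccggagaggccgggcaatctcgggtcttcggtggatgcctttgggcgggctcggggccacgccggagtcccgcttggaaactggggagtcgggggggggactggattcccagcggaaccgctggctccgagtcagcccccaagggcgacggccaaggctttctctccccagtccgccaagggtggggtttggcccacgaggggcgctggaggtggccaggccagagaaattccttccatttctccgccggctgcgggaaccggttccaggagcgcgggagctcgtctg

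The NR4A3 window held 4 CRE cores, counted back from the transcript start at -109 to -105, -91 to -87, -83 to -79 and -25 to -21. The second of these lies on the minus strand. Of 35116 promoter windows in the table, 24.6% held at least 1 core and 0.313% held 4 or more. A full CRE, which 1.85% of all windows hold, was not among the letters of the NR4A3 window. Neither NR4A1 window held any of the 4 motifs, of which the AP-1 site occurred in 7.71% and the NBRE in 1.22% of all windows. Any other transcript start in the NR4A1 locus, which runs on to 52059503, was not searched, so absence holds for these windows alone. The upstream NR4A1 window had a GC content of 53.3%. A match is a string of letters and does not show that a factor binds there.

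The 6 h and 0 h arrays had median intensities of 44.9 and 45.8. Values under 45.4, the median of the pooled values, were set to this floor, since no detection calls were used here. The 12669 measured genes had log2 differences with a median of 0.02 and an SD of 0.19. The labels name the cells type II alveolar cells. Of 8 markers of that type with a probe set of their own, 5 were above the floor on at least 1 array and the 8 summed to 616.1 at 6 h and 556.3 at 0 h. SFTPD, LAMP3 and SLC34A2 were below the floor on both arrays. Of the 5 above it, SFTPC was lower at 6 h (92.3, against 113.3 at 0 h) and the others were higher. Of 5 epithelial markers, KRT8 and KRT18 were above the floor and EPCAM, KRT19 and CDH1 below it on both arrays, with a sum of 244.1 at 6 h and 266.5 at 0 h. Of the markers of other types, 2 of 5 for fibroblasts, 1 of 4 for leukocytes and 1 of 5 for endothelium were above the floor on at least 1 array. Summed intensities were 273.9 at 6 h and 332.8 at 0 h for fibroblast markers, 117.3 at 6 h and 142.9 at 0 h for leukocyte markers, and 144.1 at 6 h and 160.2 at 0 h for endothelial markers. The sum was lower at 6 h for all 3 of these types, but each includes markers below the floor on both arrays. The largest falls were in COL1A1 (179.4 at 6 h, 230.1 at 0 h), AIF1 (45.3 at 6 h, 64.1 at 0 h) and PECAM1 (54.5 at 6 h, 73.5 at 0 h). COL1A2, COL3A1, CD14, KDR and TEK, all below the floor, were higher at 6 h and the other markers lower. These sums do not show that such cells were present, and their part in the results below was not tested. In bulk RNA of a cell line, shifts between cell states and changes in RNA per cell cannot be told apart.

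NR4A2 was higher at 6 h on each of its 3 probe sets, and it had the highest difference of all 12669 measured genes, though it was at rank 8 of 10804 when the floor was set at the 60th percentile. This receptor is best known for its part in making and keeping dopaminergic neurons. Probe set 204622_x_at, annotated with a RefSeq transcript, had an intensity of 136.9 at 6 h, against 52.8 at 0 h. That is 2.59-fold, a log2 difference of 1.37. The higher floor lies above this 0 h value and leaves only a bound under 2-fold, a log2 difference of at least 0.92. Probe set 216248_s_at had an intensity of 114.1 at 6 h, against 38.0 at 0 h, and probe set 204621_s_at had 93.7 at 6 h, against 38.4 at 0 h. On both of these the 0 h value lay below the floor, so only a bound can be given: at least 2.51-fold and at least 2.06-fold higher. The values as deposited have ratios of 3.0 and 2.44. The 6 h value was the higher one on each of the 3 probe sets, which are not replicates. For 216248_s_at and 204621_s_at, above the floor at 6 h alone, no other direction could be measured. All 3 sets end in _x_at or _s_at, and such sets can detect related or several transcripts. No set without these endings covers NR4A2.

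**Figure D1:**
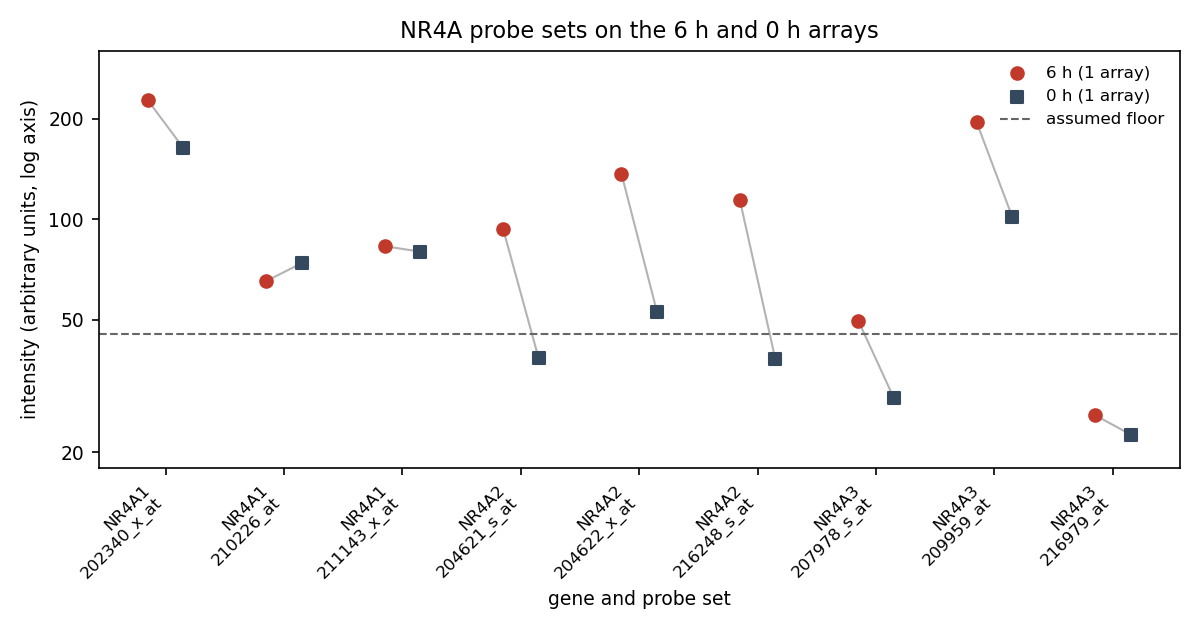
Intensity of each NR4A probe set (log axis, arbitrary units) on the 6 h array (circles) and the 0 h array (squares), 1 array each, with the assumed floor of 45.4 dashed. Levels of different probe sets cannot be compared with each other. Of the 5 probe sets above the floor on both arrays, only 210226_at of NR4A1 is lower at 6 h. The 3 above it at 6 h alone count as measured through that array and could only be higher there. Both values of 216979_at lie below the floor.

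NR4A3, known in tumours as the fusion partner of EWSR1 in extraskeletal myxoid chondrosarcoma, was higher at 6 h on its brightest probe set and near or below the floor on the others. Probe set 209959_at had an intensity of 195.1 at 6 h, against 101.7 at 0 h, which is 1.92-fold and a log2 difference of 0.94. This placed NR4A3 at rank 9 of all measured genes. Probe set 207978_s_at had 49.7 at 6 h, against 29.1 at 0 h. With the floor its log2 difference was 0.13, a bound of at least 1.09-fold. The ratio of the deposited values was 1.71, and a floor at the 40th percentile gave a log2 difference of 0.71. Taking the median of both measured probe sets would put the gene at 0.53 and at rank 113 of 12669. Probe set 216979_at had 25.8 at 6 h and 22.6 at 0 h, below the floor on both arrays, and so has no measured direction.

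The probe sets of NR4A1 disagreed with each other. This gene encodes the receptor studied most for its nuclear and mitochondrial roles in cell death and survival. Probe set 202340_x_at, annotated with a RefSeq transcript, had an intensity of 227.4 at 6 h, against 163.6 at 0 h, which is 1.39-fold and a log2 difference of 0.48. Probe set 211143_x_at had 83.0 at 6 h and 79.9 at 0 h, a log2 difference of 0.05. Probe set 210226_at had 65.3 at 6 h and 73.9 at 0 h, a log2 difference of -0.18. The gene stood at rank 233 of 12669 by its brightest probe set. Probe sets with the endings _x_at and _s_at can detect related or several transcripts, and without them 210226_at alone is left and the direction is the opposite one. A direction for NR4A1 is therefore not settled by these arrays.

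Of the 9 probe sets 8 were measured, 5 of them above the floor on both arrays and 3 at 6 h alone. Among the 8, 3 were at least 2-fold higher at 6 h and 4 at least 1.5-fold higher, with 0 at least 1.5-fold lower. Over all 28239 measured probe sets 0.0319% were at least 2-fold higher and 0.804% at least 1.5-fold higher. Since the members were chosen with this contrast known, nothing is read from these counts. The probe sets at least 2-fold higher numbered 9, and the 3 of NR4A2 held ranks 1, 2 and 6 among them. Without replicates, spread can be described only within the same pair of arrays. The measured NR4A probe sets had a mean intensity of 47.5 to 192.9 with the floor applied. In this brightness range the log2 differences of probe sets of 1 gene scattered with an SD of 0.20 over 2010 genes. Over all 12884 measured probe sets of that range the SD of the differences was 0.23. Both SDs use values raised to the floor, which makes the differences of dim probe sets smaller, so they can understate the scatter. Neither includes differences between cultures.

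**Figure D2:**
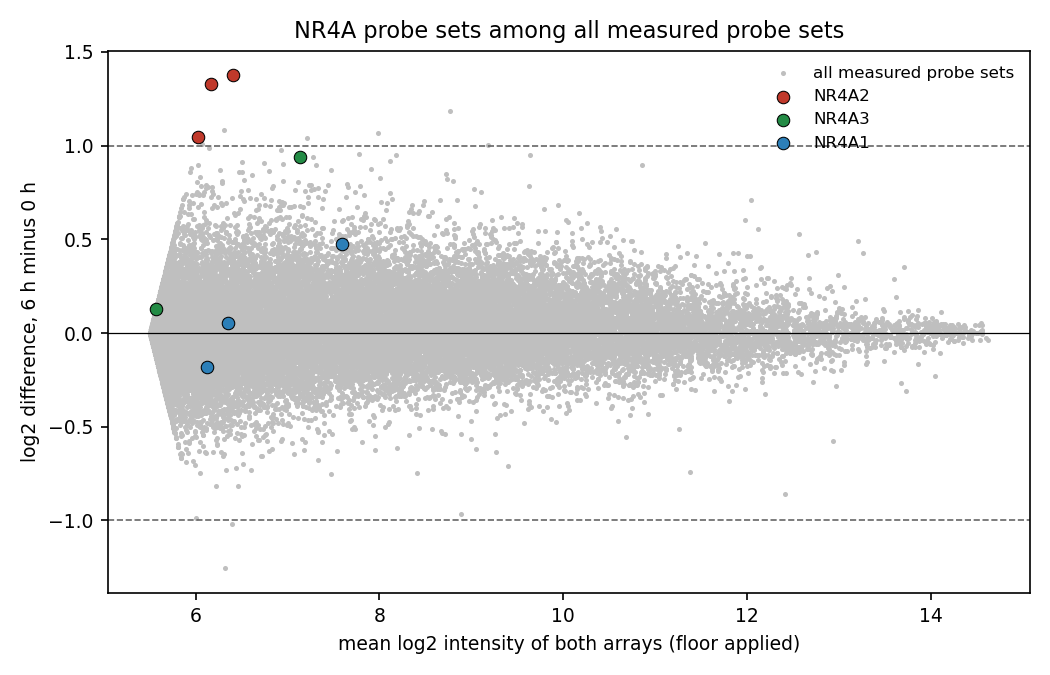
Log2 difference, 6 h minus 0 h, against the mean log2 intensity of both arrays with the floor applied, for all 28239 measured probe sets (grey) and the 8 measured NR4A probe sets (coloured by gene). Dashed lines mark 2-fold; the 3 NR4A2 points lie above the upper line, at 1.05, 1.33 and 1.37, NR4A3 has points at 0.94 and 0.13, and those of NR4A1 lie between -0.18 and 0.48.

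Among the nuclear receptor family the NR4A receptors took ranks 1 (NR4A2), 2 (NR4A3) and 4 (NR4A1) of 26 measured members. NR4A2 and NR4A3 swapped places for a floor at the 60th percentile, and NR4A3 was at rank 3 of 26 with the median of its probe sets. The rank of NR4A1 rests on its brightest probe set: it was 9 of 26 with the median of the probe sets and 18 of 18, the lowest, without _x_at and _s_at sets. The other 23 had a median log2 difference of 0.04, beside 0.02 over all measured genes. Of these, 14 were higher and 9 lower, or 60.9% higher, beside 54.3% of all genes. Of the 23, 1 was at least 1.5-fold higher and 0 were at least 1.5-fold lower, beside 0.75% and 0.182% of all genes. The median of this list had the opposite sign, -0.013, when each gene was given the median of its probe sets. The list holds 45 receptors, of which 36 had a probe set naming them alone, and 13 of these were not measured on any probe set.

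The receptor past 1.5-fold was THRB, a thyroid hormone receptor. Its intensity was 90.3 at 6 h and 52.8 at 0 h, a log2 difference of 0.77, on 1 measured probe set whose 0 h value is close to the floor. Both arrays gave values below the floor for its other probe sets. PPARA, which drives fatty acid oxidation, had 333.9 at 6 h and 262.0 at 0 h, a log2 difference of 0.35, with 6 probe sets between -0.11 and 0.35. NR2C2 differed by 0.24. RXRA, the partner with which NR4A1 and NR4A2 can pair, had 818.6 at 6 h and 693.2 at 0 h, a log2 difference of 0.24, but its second probe set was at -0.27. NR6A1 was at 0.23 with 7 probe sets between -0.43 and 0.24, and NR2F1 was at 0.17. By their brightest probe sets the retinoic acid receptors were among the 6 lowest. RARA had 89.9 at 6 h and 108.6 at 0 h, a log2 difference of -0.27, with its other 3 measured probe sets above 0. RARB was at -0.06 and RARG at -0.07. The vitamin D receptor VDR was at -0.09, and the estrogen receptor ESR1 and the estrogen-related receptor ESRRB were both at -0.10. NR3C1, the glucocorticoid receptor, named after its values were seen, differed by -0.02.

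**Figure D3:**
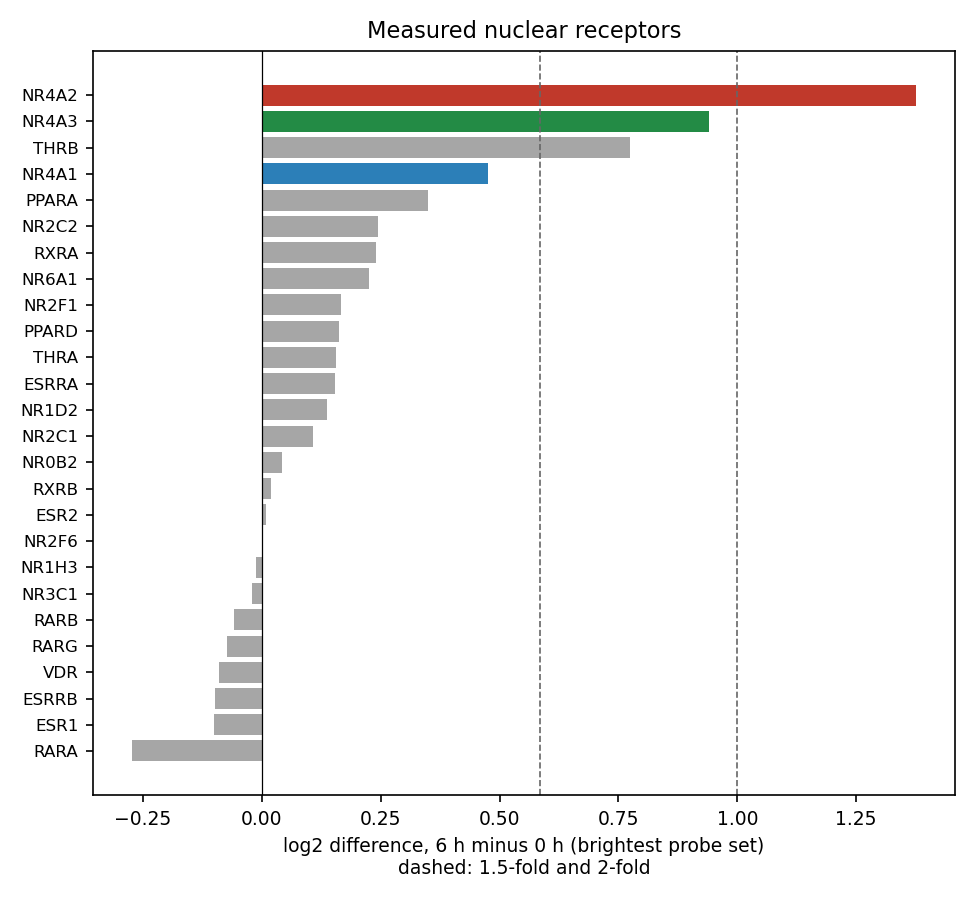
Log2 difference, 6 h minus 0 h, of the brightest probe set of each of 26 measured nuclear receptors, 1 array per time. NR4A2 (1.37), NR4A3 (0.94) and NR4A1 (0.48) are coloured, and THRB (0.77) lies between NR4A3 and NR4A1; RARA (-0.27) is lowest.

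NR4A genes are themselves induced through CREB, and 29 other genes known to be induced by this route were examined beside them. Of 18 measured, 15 were higher at 6 h and 3 lower, or 83.3% higher, beside 54.3% of all genes, with a median log2 difference of 0.24 beside 0.02. Of the 18, 1 was at least 2-fold higher, beside 0.0316% of all genes, and 2 were at least 1.5-fold higher, beside 0.75%. The 15 include FOS, given below, which was above the floor at 6 h alone and so could only count as higher. They also hold differences as small as 0.0006. The list was chosen with earlier results of these data known, so nothing is read from these counts. GEM, a small GTPase that inhibits calcium channels, had 367.3 at 6 h and 175.3 at 0 h, a log2 difference of 1.07 on its only measured probe set. ATF3, a stress-induced member of the ATF/CREB family, had 170.7 at 6 h and 86.8 at 0 h, and its probe sets differed by 0.98 and 0.30. PDE4D, a phosphodiesterase that breaks down cAMP, had 513.7 at 6 h and 354.5 at 0 h, with 3 measured probe sets between 0.42 and 1.04. DUSP1, a phosphatase that switches off MAP kinases, had 670.4 at 6 h and 447.9 at 0 h. Its 3 probe sets disagreed, between -0.17 and 0.59.

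The 3 lower CREB targets were SIK1, BDNF and RGS2. SIK1, a kinase that holds CRTC coactivators in the cytoplasm, had 143.8 at 6 h and 192.0 at 0 h, a log2 difference of -0.42, and its second probe set was at -0.13. CREM, whose ICER form represses CREB targets, differed by 0.0006 with 5 probe sets between -0.07 and 0.26. BDNF, a neurotrophin, differed by -0.21 and RGS2, a regulator of G protein signalling, by -0.17. FOS had 53.7 at 6 h and 37.9 at 0 h, with the 0 h value below the floor, which gives at least 1.18-fold. These 5 genes were named after their values were seen.

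Among the factors upstream of NR4A genes and the partners of the receptors, 22 of 27 were measured. Differences were small: 19 were higher and 3 lower, or 86.4% higher, beside 54.3% of all genes, with a median of 0.12. All genes were not matched to the list in brightness, and some of the 19 differed by as little as 0.012. Centring, quantile and loess scaling left 16 higher, with medians of 0.10, 0.08 and 0.08. The list was chosen with earlier results of these data known, so nothing is read from these counts. None passed 1.5-fold, beside 0.75% of all genes higher and 0.182% lower by that much. The coactivator EP300 had 1103.6 at 6 h and 860.9 at 0 h, a log2 difference of 0.36, and its probe sets were at 0.34 and 0.36. MEF2D, which drives NR4A1 in T cells, differed by 0.36 but had a probe set at -0.11. The related MEF2A differed by 0.31, with 4 probe sets between 0.21 and 0.39. The coactivator CRTC1 was the lowest, with 110.9 at 6 h and 137.3 at 0 h, a log2 difference of -0.31, and its second probe set was at -0.20. CRTC2 (0.09), CRTC3 (0.13), CREB1 (0.12) and STK11 (0.20), named after their values were seen, differed by less, and CRTC3, CREB1 and STK11 also had probe sets below 0, down to -0.02, -0.09 and -0.11. STK11 was above the floor on both arrays, at 355.2 at 6 h and 309.7 at 0 h. CREB and CRTC proteins are controlled largely by phosphorylation and location, which transcript levels do not show.

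Genes described as targets of NR4A receptors, mostly in other cells and in mouse or rat, lay on both sides of 0. Of 32 listed, 15 were measured, with 10 higher and 5 lower, or 66.7% higher, beside 54.3% of all genes, and a median of 0.07. Of the 10, 1 was above the floor at 6 h alone and so could only count as higher. NFKBIA, the inhibitor of NF-κB, was the 1 member past 1.5-fold, beside 0.75% of all genes, with 1250.5 at 6 h and 778.0 at 0 h, a log2 difference of 0.68 on 1 probe set. The lymphoid factor IKZF2 had 706.1 at 6 h and 489.2 at 0 h, a difference of 0.53 on 1 probe set. IRF4, which NR4A1 represses in mouse T cells, had 73.2 at 6 h and 55.1 at 0 h, and FOXP3, the factor of regulatory T cells, had 47.6 at 6 h and 63.3 at 0 h. These last values lie close to the floor. SPP1, which encodes osteopontin and is a target of Nurr1 in mouse bone cells, differed by -0.08, and the cell cycle targets CCND1, SKP2 and E2F1 differed by 0.006, -0.06 and -0.11. BIRC5, which encodes survivin, differed by 0.11 with 4 probe sets between -0.005 and 0.11. The last 5 genes were named after their values were seen. The other 17 genes of the list had no measured probe set of their own.

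**Figure D4:**
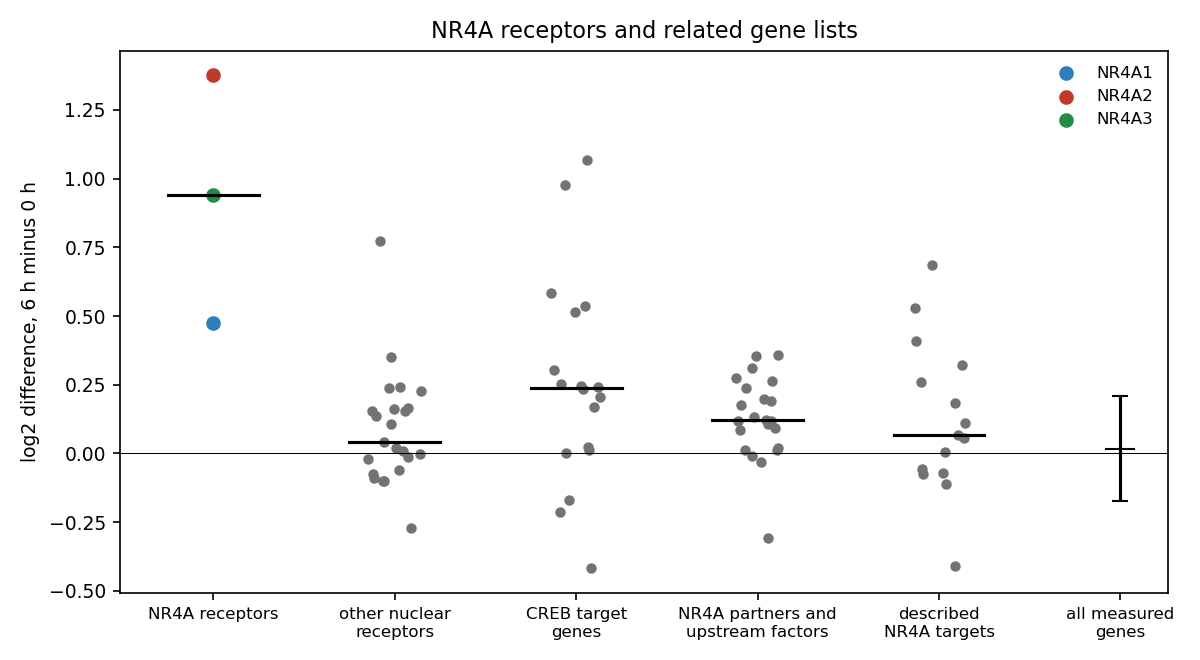
Log2 difference, 6 h minus 0 h, of the brightest probe set of each measured gene in the NR4A group and in the 4 related lists; horizontal bars are medians, and the last column gives the median and SD over 12669 genes (0.02 and 0.19). The list medians are 0.04 for other nuclear receptors, 0.24 for CREB target genes, 0.12 for partners and upstream factors and 0.07 for described targets.

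The genes with the most similar pair of values were sought by the Euclidean distance between log2 intensities over the 2 arrays. An intensity also depends on how well a probe set hybridises, so this likeness describes array signals. For NR4A2 no gene lay close. The nearest were PIERCE2 (119.9 at 6 h and 66.1 at 0 h), JUN (122.0 at 6 h and 67.2 at 0 h) and ISL2 (104.2 at 6 h and 57.1 at 0 h). Their distances were 0.38, 0.39 and 0.41, and their differences lay between 0.86 and 0.87. NR4A2 had the highest difference of all measured genes, so any neighbour has a smaller one. Each of these 3 neighbours rests on 1 measured probe set. For NR4A3 the nearest were the cathepsin gene CTSK (183.9 at 6 h and 105.0 at 0 h) at a distance of 0.10, FREM2 at 0.21 and TWF2-DT at 0.22. For NR4A1 DLX6, MYT1 and ETV6 lay within 0.03, and the other probe sets of DLX6 and MYT1 reached down to a difference of 0.02. As with NR4A1, the brightest probe set of these 2 genes is not matched by all others.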

How the data were processed

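Affymetrix expression arrays of CL1-0 RNA were used, 1 for 6 h and 1 for 0 h with an antibody to FSTL1. The deposited values are linear probe set intensity, summarised by the authors with MAS5 per the submitters' processing notes. Version and scaling are not given in the sources used here, and detection calls were not used. This method subtracts local background and mismatch signal, so dim values are noisy.

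Of 54675 probe sets, 62 were array controls, 41091 named 1 gene, 1801 several and 11721 none. Platform symbols were updated by Entrez identifier to RefSeq (41037 matched). Values under the pooled 50th percentile, 45.4 intensity units, were raised to it as an assumed floor. A probe set above it on at least 1 array counted as measured (28239 probe sets, 12669 genes). Differences are log2 at 6 h minus log2 at 0 h, and a gene is represented by its brightest probe set. Python 3.11.15, pandas 2.3.3 and statsmodels 0.14.6 were used, and the steps were tested on simulated data. There only probe sets brighter than the measured NR4A ones were given a known change, so the dim range was not tested. With 1 array per time there is no replicate spread and no significance test, and precision is limited by the number of arrays.

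The members and lists were chosen with earlier results of these data known, so nothing is read from their counts. Genes named were all members, the 6 highest and 6 lowest other nuclear receptors, up to 4 members with the largest absolute difference in each other list, and for each NR4A gene the 3 genes with the nearest pair of values. Any other gene is marked as named after its values were seen. The settings also tried were floors at the 40th and 60th percentiles, no floor with log2(value + 16), median centring, quantile normalization, a loess curve (span 0.3), a gene's median over its probe sets, and no _x_at or _s_at probe sets.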

Additional observations from a re-analysis of the deposited data

How the results depend on the processing

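A floor at the 60th percentile lies above the 0 h value of NR4A2. It leaves only a bound under 2-fold, a log2 difference of at least 0.92, against 1.37 as reported. Adding 16 to each value, with no floor or filter, gave 1.15. Its probe sets 204621_s_at and 216248_s_at ranged from 0.37 to 1.29 and from 0.65 to 1.59 over the settings. NR4A2 has no value without _x_at and _s_at probe sets, since all 3 of its sets are of these kinds. With the median taken over probe sets NR4A3 was at 0.53, NR4A1 at 0.055 and the median of other nuclear receptors at -0.013. Without _x_at and _s_at sets NR4A1 was at -0.18. The cause was not tested where the settings do not show it by construction. NR4A2 and NR4A3 were higher at 6 h under every alternative that gave a value (7 and 8 of them), over ranges of 0.92 to 1.37 and 0.53 to 0.94. Medians kept their sign for CREB targets (0.11 to 0.24), partners and upstream factors (0.08 to 0.12) and described targets (0.006 to 0.07). Under centring, quantile and loess scaling 16 partners and upstream factors were higher, against 19 as reported. For CREB targets these scalings gave 13, 14 and 14 higher, against 15. The share of all genes higher under these scalings is not given here. The count of described targets higher was 16 of the 30 on the array with no floor and no filter, against 10 of 15 measured as reported. That of partners and upstream factors higher was 11 without _x_at and _s_at sets, where other sets are used and genes such as EP300 have none. Over all genes, 4 were at least 2-fold higher, or 7 for a floor at the 40th percentile. The count at least 2-fold lower was 1 for the 50th percentile, 2 for the 40th and under centring, quantile and loess scaling, and 0 for a floor at the 60th percentile or without _x_at and _s_at sets. The count at least 1.5-fold lower was 23 for the 50th percentile, 41 and 10 for floors at the 40th and 60th percentile and 11 with no floor. No paired analysis was possible because each time has 1 array. The number of arrays limits all of these values, and dim signal limits NR4A2 and NR4A3 at 0 h.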
